A study of Homo sapiens with 6 samples.

Results

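Guide abundance in parental HAP1 cells at the end of a pooled CRISPR knockout screen was compared with guide abundance in the guide library itself. HAP1 is an established human line with a nearly haploid genome, which came from a patient's chronic myeloid leukaemia and carries the BCR-ABL fusion. The comparison used 4 of the 6 samples: 2 with the genotype label Parental and 2 with the genotype label Library, taken by the names of their columns in the count table. Guides entered if their counts averaged at least 30 in the library samples, which kept 71570 of 71626 guides, and the guides were summarised by gene for 7090 of 7093 genes, since 3 genes had fewer than the 3 guides needed. The remaining 2 samples, from cells labelled SETD2-mutant, helped only to estimate the spread and to test differences between the lines. In that test 1.28% of the 7090 genes were lower in SETD2-mutant than in parental cells and 1.03% were higher.

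The labels list no mutation for the parental cells and no drug other than puromycin, which kills cells without the guide virus. The cells were transduced at a multiplicity of infection of 0.7, divided into replicates 48 h later and grown for 12 doublings. The replicates of the line therefore share 1 transduction, and no p-value here covers spread beyond the sequenced samples. The test per guide uses the spread between samples, while the p-value of a gene rests on the ranks of its guides. The labels name HAP1 for the library samples as well but do not say how these were taken. Guide counts come from genomic DNA, so no expression marker was available to check the cell line.

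In a knockout screen a guide cuts 1 gene in the cells that receive it, and at a multiplicity of infection of 0.7 some cells can receive more than 1 guide. Cells that lose a gene they need divide more slowly or die, so the guides of that gene become rarer, and guides of a gene that restrains growth become more common. Genes for protein synthesis, DNA replication and energy supply are textbook needs of dividing cells, while tumour suppressors such as NF2 are textbook brakes. The sources used here identify guides by number only, so no guide sequence is given.

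The library samples summed to 38428425 and 34679351 counts and the parental samples to 38197301 and 34003792, with a median of 378 to 466 counts per guide. Guides without a count numbered 6 and 5 in the library and 89 and 116 in parental cells. Replicates differed by a chi-square per degree of freedom of 1.37 in the library and 14.1 in parental cells, against about 1 from counting error. By design most genes had 10 guides, and 6952 of the tested genes kept all 10.

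A gene's change is given as the log2 fold change of parental cells against the library, averaged over its guides, with the standard error (SE) over guides. Genes were called from edgeR's test per guide followed by robust rank aggregation (RRA), at an adjusted p below 0.05 in either direction. RRA asks whether the guides of a gene sit nearer to 1 end of the ranking of all guides than an even spread would put them. Of 7090 genes, 702 were depleted (9.90%) and 76 were enriched (1.07%). The depleted genes had a median change of −2.09 and ranged from −6.42 to −0.43, with 640 below −1, 378 below −2, 139 below −3 and 22 below −4. The enriched genes had a median change of 0.67 and ranged from 0.18 to 1.33, with 9 above 1. The median of all genes was −0.02. Depletion was thus both more frequent and larger than enrichment.

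In all 702 depleted genes both parental samples lay below both library samples, which was so for 45.7% of all genes, and in all 76 enriched genes both lay above, which was so for 39.1%. The difference between the parental replicates in the change of a gene had a standard deviation of 0.144. At the threshold, the last depleted gene was CBX3 (adjusted p = 0.0450) and the first gene outside was TGS1 (0.0505). The last enriched gene was MORF4L2 (0.0497) and the first outside was NPY5R (0.0504). A further 76 genes had a change below −1 and were not called.

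**Figure D1:**
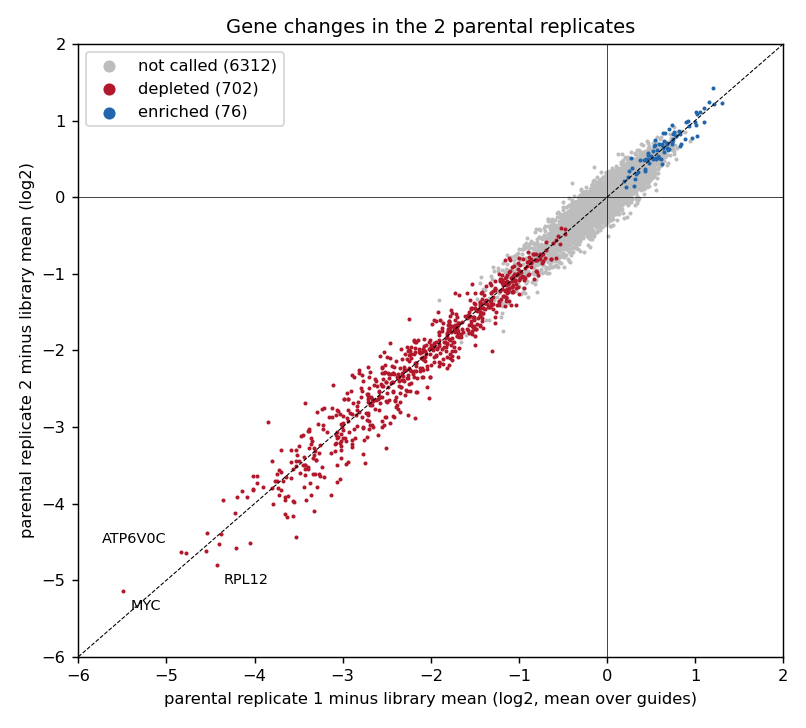
Change of each of 7090 genes in parental replicate 1 (x axis) and replicate 2 (y axis) against the mean of the library samples, on the log2 scale as a mean over guides, with a prior count of 2 that pulls very low counts towards 0. Red points are the 702 depleted genes and blue points the 76 enriched genes, and both lie along the dashed line of equal change, with MYC lowest in both replicates.

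The guide identifiers carry class prefixes whose meaning is not stated, and these classes differed in their values. The 456 guides of the CTRLe class, which target 46 genes, had a median change of −3.48, and 90.6% of them lay below −1. All but 1 of its genes were depleted (45 of 46). The 1536 guides of the CTRL class had a median of 0.01, and 760 guides to orphan G protein-coupled receptors, genes with no general role in cell division, had a median of 0.14. The 7182 guides of the depleted genes had a median of −1.86, with 74.4% below −1. The SRF class was the largest with 3982 genes, of which 142 were depleted and 8 enriched.

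A separate set of 100 guides labelled dummyguide had a median change of 0.69, with the 10th percentile at 0.19 and the 90th at 1.11, and 94 of the 100 lay above 0. This is as high as the guides of the enriched genes, whose median was 0.70. What these guides target is not stated. When counts were scaled on the dummyguide guides instead of on all guides, every gene moved by −0.72 and 650 genes were depleted and 54 enriched. Of the 76 enriched genes, 32 then stayed above 0 and 44 fell below it, and only 44 of 7090 genes were above 0 at all. Of the 54 genes called enriched with this scaling, 31 lay above 0, since RRA ranks guides against each other. A call kept with this scaling therefore does not by itself mean a rise above the dummyguide guides. Enrichment below is given against the bulk of the guides, and what the dummyguide scaling does to a named gene is stated in the same paragraph.

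**Figure D2:**
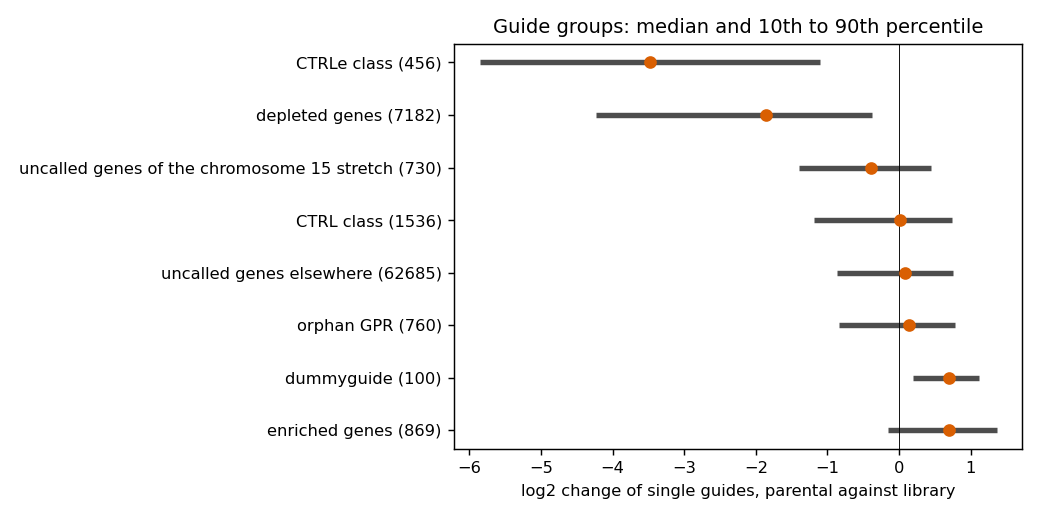
Log2 change of single guides, parental against library, for 8 groups of guides, with the number of guides in parentheses. Orange points are medians and bars run from the 10th to the 90th percentile; guides of the CTRLe class are lowest at −3.48, and the dummyguide guides lie at 0.69, beside the guides of the enriched genes.

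MYC, the transcription factor that drives cell growth, had the lowest change of all genes. The median over its 10 guides was 9.49 and 9.31 CPM, counts scaled to library size, in the library samples and 0.118 and 0.223 CPM in the parental samples. All 10 guides fell, and the sum of their counts went from 3642 and 3133 in the library to 93 and 106. The change was −6.42 (SE 0.728, adjusted p = 1.75e-08), and the groups did not overlap. MAX, the partner that MYC needs to bind DNA, was depleted too, at −2.37 (SE 0.658). MGA, which pairs with MAX and opposes MYC, was enriched at 0.92 (SE 0.143), or 0.20 with the dummyguide scaling. MYCN and MXI1 were not called, at 0.65 and 0.07, and MYCN lay at −0.07 with the dummyguide scaling.

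The strongest depletion by rank belonged to PKM, the last enzyme of glycolysis (adjusted p = 6.97e-11), followed by ATR, the kinase that senses stalled replication forks (9.40e-11). PKM guides had a median of 28.9 and 29.7 CPM in the library and 3.41 and 4.20 CPM in parental cells, a change of −3.58 (SE 0.408). ATR guides had 49.5 and 52.1 CPM against 7.40 and 8.40 CPM, a change of −2.65 (SE 0.432). For both genes all 10 guides fell and both parental samples lay far below the library. PKM lies on chromosome 15 within a stretch where genes as a whole were lower, described further on.

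Next in that order came NPM1, the nucleolar chaperone of ribosome assembly, at −2.33, HINFP, the activator of histone H4 genes, at −2.69, and BRCA1, the recombination factor, at −2.80. BRCA1 guides had 42.7 and 42.9 CPM in the library and 6.38 and 5.63 CPM in parental cells. CDK9, which releases paused RNA polymerase II, changed by −2.65. PLK1, a kinase of mitotic entry, had 17.2 and 17.7 CPM against 1.38 and 1.24 CPM, a change of −3.96 (SE 0.485). SOD1, the cytosolic superoxide dismutase, changed by −2.32, and IKBKAP, the scaffold of the Elongator complex that modifies tRNA, by −2.55. KPNA2, a nuclear import receptor, was targeted by 63 guides, of which 59 lay below 0, with a change of −1.11 (SE 0.113). The 25 leading genes thus spanned energy supply, replication, mitosis, transcription and ribosome assembly rather than 1 pathway.

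**Figure D3:**
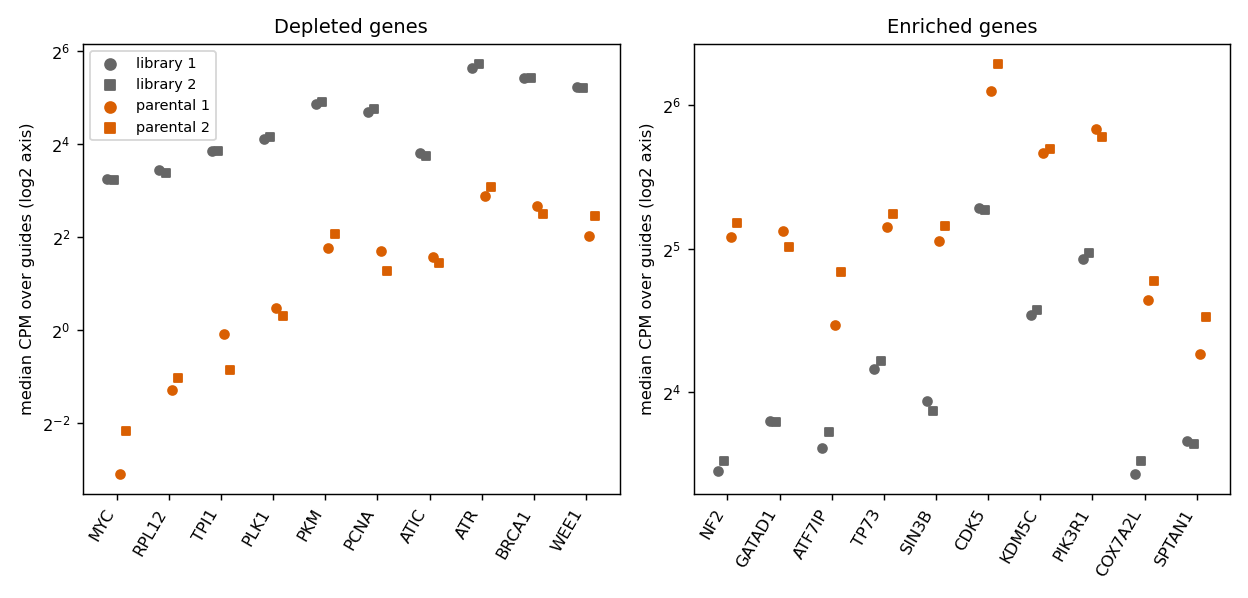
Median CPM over the guides of 10 depleted genes (left) and 10 enriched genes (right) in each library sample (grey) and each parental sample (orange), on log2 axes that differ in range. For every gene shown both parental samples lie on 1 side of both library samples; MYC falls from 9.49 and 9.31 CPM to 0.118 and 0.223 CPM.

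Genes of protein synthesis were depleted almost without exception. Of 51 measured cytosolic ribosomal protein genes, 50 were depleted and none was enriched, with a median change of −3.58 against −0.02 for all genes. The lowest were RPL12 (−5.04), RPS4X (−5.03), RPL23A (−5.02) and RPS6 (−4.78). RPL23A guides went from 9.66 and 9.12 CPM in the library to 0.369 and 0.492 CPM in parental cells. The exception was RPS24, at −0.42 (SE 0.59) with 10.8 and 10.6 CPM against 9.75 and 9.06 CPM. Only 1 of its 10 guides lay below −1, at −5.49, and the median guide was at 0.03. RPS24 was chosen for mention after its value was seen.

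All 6 measured translation factors were depleted (median −2.34), from EEF2, the elongation factor that moves the ribosome, at −3.33 to EIF4E, the cap-binding protein, at −1.20. EIF4E was no longer called without parental replicate 1 (adjusted p = 0.121), without replicate 2 (0.261) or with the dummyguide scaling (0.112). All 10 measured spliceosome genes were depleted as well (median −2.63), led by SF3B3 (−3.57) and SRSF3 (−3.56). Among 17 subunits of RNA polymerases and general transcription factors 16 were depleted (median −1.80), with POLR2L, a small subunit shared by the RNA polymerases, at −3.66 and GTF2B at −3.50. The Mediator subunits MED12 (−1.58) and MED1 (−1.18) were depleted, while its kinase CDK8 stood at −0.11. PSMA7, the proteasome subunit measured, was depleted at −2.68.

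The DNA replication genes showed the same breadth. Of 23 fork and origin genes 21 were depleted (median −2.35), with RFC3 (−4.64) and RFC2 (−3.68) of the clamp loader, PRIM1 of the primase (−3.88) and PCNA, the sliding clamp (−3.68), lowest. Of 19 genes of the replication checkpoint and deoxynucleotide supply 16 were depleted (median −2.43). These held RAD9A (−3.20) and HUS1 (−2.81) of the checkpoint clamp, CHEK1 (−2.23), the kinase that ATR activates, WEE1, the kinase that holds back CDK1 (−3.07), and RRM2 of ribonucleotide reductase (−3.15). TYMS, which makes thymidylate, went from 30.4 and 29.6 CPM to 6.33 and 6.84 CPM, a change of −2.92 (SE 0.462). No gene of either list was enriched.

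Genes of fork repair were depleted nearly throughout. All 13 measured Fanconi anaemia genes, which repair crosslinked DNA, were depleted (median −1.70), from FANCI (−2.26) and FANCM (−2.23) to a highest value of −0.81. Of 23 homologous recombination genes 20 were depleted (median −1.65), with TONSL at −2.96 and RAD51D, a factor that helps load the recombinase, at −2.89. End joining was divided, with 6 of 12 depleted. Its lowest members were MAD2L2, a protein of the shieldin complex and of translesion synthesis, at −2.76, and the Ku subunits XRCC5 (−2.35) and XRCC6 (−1.97). In mismatch repair 1 of 8 genes was depleted, against 9.90% of all genes, and the median of the list was −0.14. The depleted gene was EXO1 (−1.15), which was no longer called without parental replicate 2 (change −1.09).

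Genes of cell division were depleted in part. CDK1, the kinase of mitotic entry, changed by −3.43, and 9 of 15 CDKs and cyclins were depleted. The mitotic list had 8 of 14 depleted, with AURKA (−2.996), AURKB (−2.76) and PLK4, the kinase of centriole duplication (−2.02), beside PLK1. Cohesin and its relatives had 5 of 6 depleted, with SMC3 (−2.90), RAD21 (−2.69), SMC6 (−2.40) and SMC1A (−2.38) lowest, while STAG2 stood at −0.74. Of 18 genes of ubiquitin, NEDD8 and SUMO transfer 13 were depleted, with RBX1, the ring subunit of cullin ligases, at −3.34 and ANAPC4 of the anaphase promoting complex at −3.01. Among 8 chaperones 5 were depleted, and HSPA9 of mitochondria (−4.08), HSPA8 of the cytosol (−3.62) and HSPA5 of the endoplasmic reticulum (−3.37) were the lowest.

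Genes of energy metabolism were depleted in part. In glycolysis and pyruvate use 13 of 27 genes were depleted (median −0.74), and the 14 not called ran from −0.80 to 0.29. The depleted enzymes included TPI1 (−4.39), GPI (−3.78), ALDOA (−3.71) and PKM. TPI1 guides went from 14.3 and 14.3 CPM to 0.948 and 0.551 CPM, with no overlap of the groups. The respiratory chain was depleted as well: 19 of 28 genes of complexes II to V (median −1.89), with ATP5A1 of the ATP synthase at −3.60, cytochrome c (CYCS) at −3.42 and UQCRFS1 of complex III at −2.85. In complex I 9 of 18 genes were depleted with a median of −1.13, and all 18 lay below 0. With the dummyguide scaling 5 of the 18 complex I genes were called. In the citric acid cycle 5 of 19 were depleted, against 9.90% of all genes. These included OGDH (−3.03), its partner DLST (−1.74), ACLY, which exports acetyl groups to the cytosol (−1.88), and FH (−1.36).

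Genes of nucleotide synthesis were depleted as well. Of 17 genes of purine and pyrimidine synthesis 11 were depleted (median −2.38), with PAICS (−3.78), ADSL (−3.62) and GART (−3.52) of the purine pathway and CAD, which starts pyrimidine synthesis, at −3.33. ATIC, the last enzyme of that purine route, went from 14.0 and 13.4 CPM to 2.99 and 2.71 CPM, a change of −2.38 (SE 0.228). In folate metabolism 7 of 15 were depleted, among them MAT2A, which makes S-adenosylmethionine (−2.92), and MTHFD1 (−2.50). AHCY, which removes the product of methylation reactions, followed at −2.02 and was not called with the dummyguide scaling, with a rank share limit of 0.1 or without parental replicate 1 (adjusted p = 0.0711).

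In sterol synthesis the depleted genes were early enzymes of the mevalonate pathway and genes that activate the sterol transcription factors. PMVK (−3.17), HMGCS1 (−2.65) and SCAP, the sensor that activates sterol genes (−2.37), were among the 7 depleted, yet 17 of the 24 genes of the list were not called and its median was −0.01. Of 22 genes of glycosylation and secretion 17 were depleted (median −2.05), with ALG2 (−4.09), DPAGT1 (−3.87), RPN1 (−3.29) and DDOST (−3.14) of N-glycan assembly and transfer lowest. The V-ATPase, which acidifies lysosomes, had 6 of 11 depleted. Its ring subunit ATP6V0C was the second lowest gene of the screen at −5.62 (SE 0.995), from 11.2 and 11.7 CPM to 0.224 and 0.313 CPM.

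Iron and cofactor genes were fewer. Of 6 measured heme and iron-sulphur genes 3 were depleted, among them NFS1, the sulphur donor of iron-sulphur clusters (−3.68), and TFRC, the transferrin receptor (−3.31). The heme enzymes ALAS1 (−0.28) and ALAD (−0.15) and the carrier SLC25A38 (0.03) were not called. In the list of coenzyme A, NAD and thioredoxin systems 9 of 20 were depleted, led by TKT (−3.50) and PGD (−2.74) of the pentose phosphate pathway and COASY, which completes coenzyme A (−2.70).

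Of the growth signalling genes, those of mTORC1 were depleted in part. Of 14 mTORC1 and PI3K activators 8 were depleted (median −1.03), led by RHEB, the GTPase that switches mTORC1 on (−3.19), PIK3C3 (−2.50), PDPK1 (−2.42) and RPTOR, the mTORC1 scaffold (−2.23). AKT1 (−0.12) and AKT2 (−0.13) were not called. Among 20 genes of BCR-ABL and RAS-ERK signalling only CRKL, an adaptor that BCR-ABL phosphorylates, was depleted: its guides went from 18.2 and 18.5 CPM to 3.83 and 3.71 CPM, a change of −2.17 (SE 0.302, adjusted p = 2.37e-06). The list had a median of 0.01, and over all genes 9.90% were depleted. MAPK3 (−0.60), MAP2K1 (−0.14), MAP2K2 (0.35) and BRAF (0.25) were not called. Of the BCL2 family, MCL1, which blocks apoptosis, changed by −3.89 and BCL2L1 by −1.91, while BCL2L2 (−0.74) and BCL2 (−0.40) were not called.

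Chromatin complexes were depleted in part, and over all 7090 genes 9.90% were depleted and 1.07% enriched. Among the 18 genes of COMPASS, which methylates histone H3 at lysine 4, 10 were depleted (median −1.22), and the shared core subunits WDR5 (−2.72) and ASH2L (−2.55) were lowest, followed by HCFC1 (−2.27) and WDR82 (−2.18). Of the TIP60, SRCAP and INO80 remodellers 17 of 31 were depleted, with RUVBL1 (−3.98), RUVBL2 (−3.07), ACTR6 (−2.99) and YEATS4 (−2.84) lowest. Of 36 genes of SAGA and other acetyltransferase complexes 20 were depleted, with ENY2 (−2.83), KANSL3 (−2.61), KANSL2 (−2.43) and KAT8 (−2.23) lowest. In SWI/SNF only ACTL6A (−2.68), an actin-like subunit that other complexes share, and SMARCB1 (−0.78) were depleted among 21 genes, and the median was −0.12. This count is near the share over all genes.

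The methyltransferase PRMT5, which modifies splicing proteins, went from 13.5 and 14.0 CPM to 1.11 and 0.655 CPM, a change of −3.91 (SE 0.501). Its partner WDR77 (−4.06), the adaptor CLNS1A (−2.82) and PRMT1 (−3.32) were depleted with it, 5 of 10 genes of that list. PRC2, which trimethylates H3 at lysine 27, had 5 of 11 depleted, RBBP4 (−2.17), SUZ12 (−1.71), AEBP2 (−1.41), EED (−1.02) and EZH2 (−0.97). PRC1 had 1 of 24 depleted, SKP1 (−2.09), which is also part of SCF ubiquitin ligases. Of 11 DNA methylation genes DNMT1, the maintenance methyltransferase, was depleted at −1.14 and no other was called, a count near the 9.90% depleted over all genes. Among 7 H3K36 methyltransferases SETD2 was depleted and NSD1 enriched (0.80, or 0.08 with the dummyguide scaling). SETD2 guides (gene at chromosome 3, 47016436 to 47164840, GRCh38.p14) had 32.1 and 32.0 CPM in the library and 15.8 and 14.7 CPM in parental cells, a change of −1.12 (SE 0.308, adjusted p = 2.93e-04), and all 10 lay below 0.

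**Figure D4:**
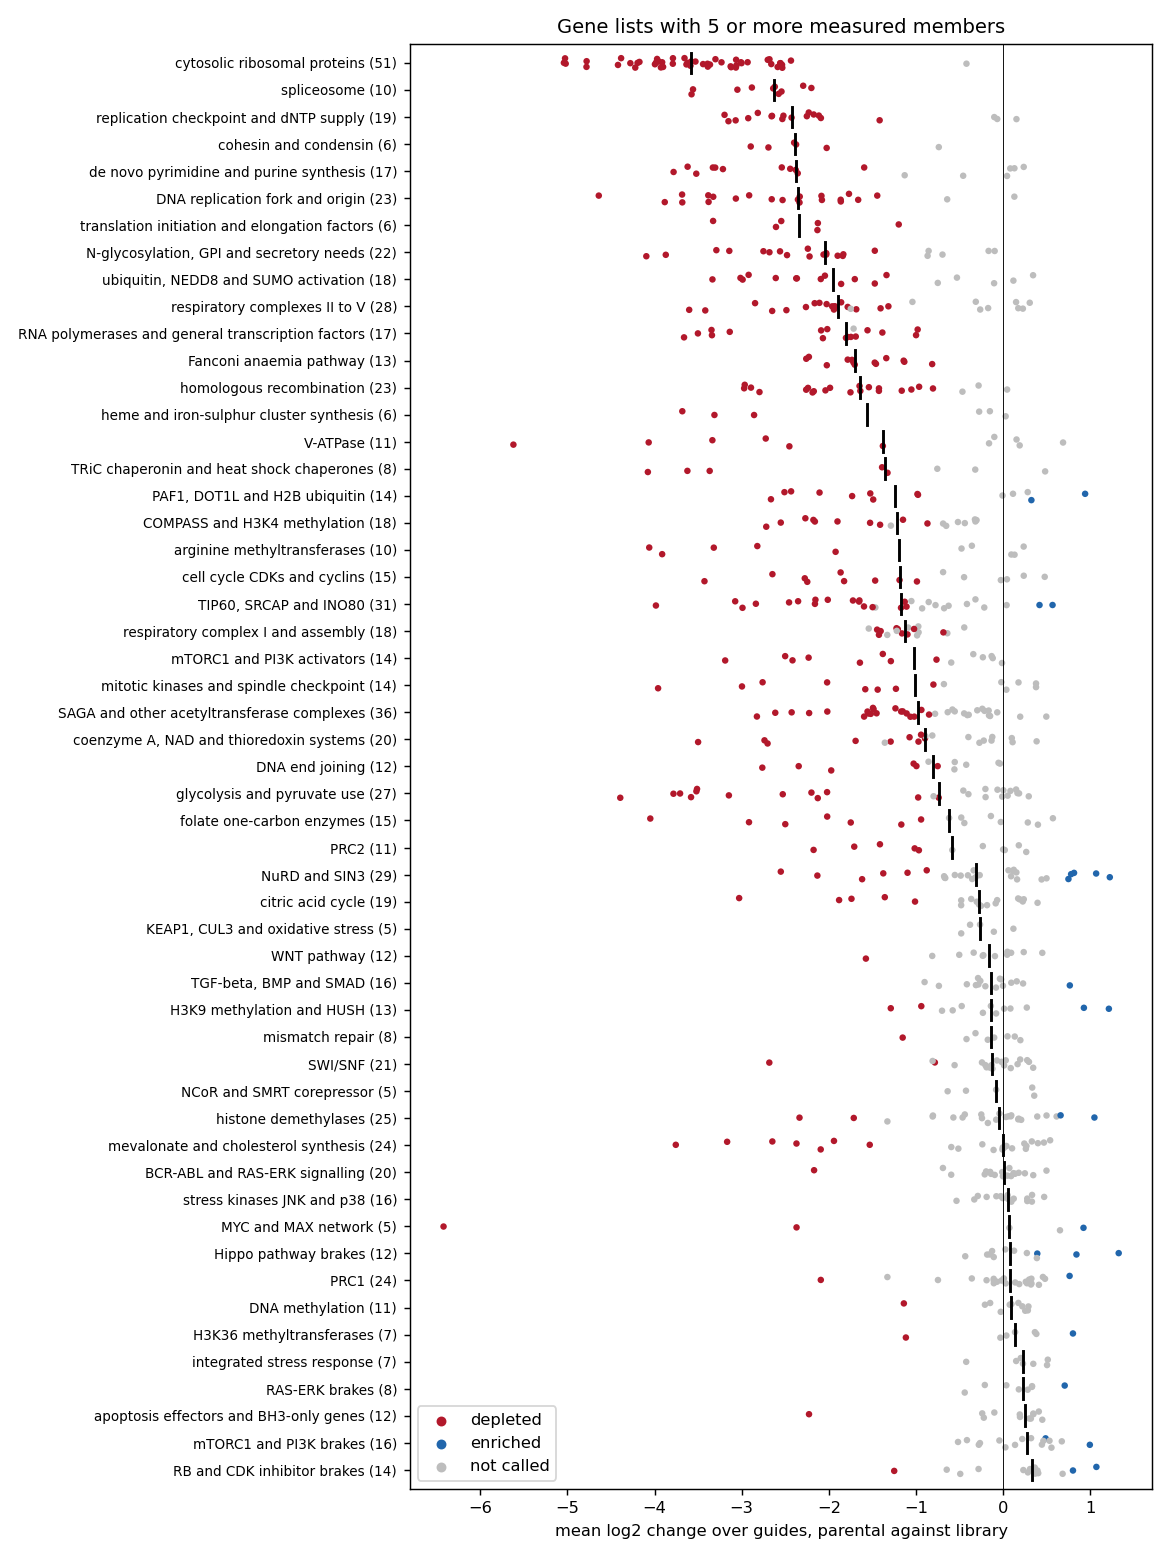
Each point is 1 measured gene of a list, placed by its mean log2 change over guides in parental cells against the library, for the lists reported that have 5 or more measured genes, with that number in parentheses. Red is depleted, blue enriched and grey not called, black bars are list medians, and the lists run from the cytosolic ribosomal proteins (−3.58) at the top to the RB and CDK inhibitor brakes (0.34) at the bottom.

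The enriched genes were led by CDK5, a kinase best known from neurons (chromosome 7, 151053815 to 151057897). The median over its 10 guides was 39.0 and 38.6 CPM in the library and 68.6 and 77.8 CPM in parental cells, a change of 1.07 (SE 0.121, adjusted p = 3.19e-10). PIK3R1, the regulatory subunit that restrains PI3K, had 30.5 and 31.3 CPM against 56.9 and 54.7 CPM, a change of 0.99 (SE 0.166, adjusted p = 9.07e-08). In both genes both parental samples lay above both library samples, and 10 and 9 of their 10 guides lay above 0. With the dummyguide scaling they stood at 0.35 and 0.27.

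NF2, the membrane-linked activator of the Hippo pathway (chromosome 22, 29603556 to 29698600), had the largest increase. Its guides went from 10.9 and 11.5 CPM in the library to 33.8 and 36.3 CPM in parental cells, a change of 1.33 (SE 0.306, adjusted p = 2.49e-06). All 10 of its guides lay above 0, from 0.31 to 3.63, so their sizes varied widely. By contrast the 10 guides of SPTAN1, a spectrin of the membrane skeleton, lay between 0.71 and 0.97, with a change of 0.84 (SE 0.0292). COX7A2L, which joins respiratory complexes III and IV, went from 10.8 and 11.5 CPM to 25.02 and 27.3 CPM, a change of 1.29 (SE 0.188). GATAD1 went from 13.9 and 13.9 CPM to 34.8 and 32.3 CPM (change 1.22), and TP73, a transcription factor, from 17.9 and 18.6 CPM to 35.5 and 37.8 CPM (change 1.14). All of these exceeded the dummyguide median of 0.69 and stayed above 0 when scaled on it, but SPTAN1 lay within the 10th to 90th percentile of the dummyguide guides.

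**Figure D5:**
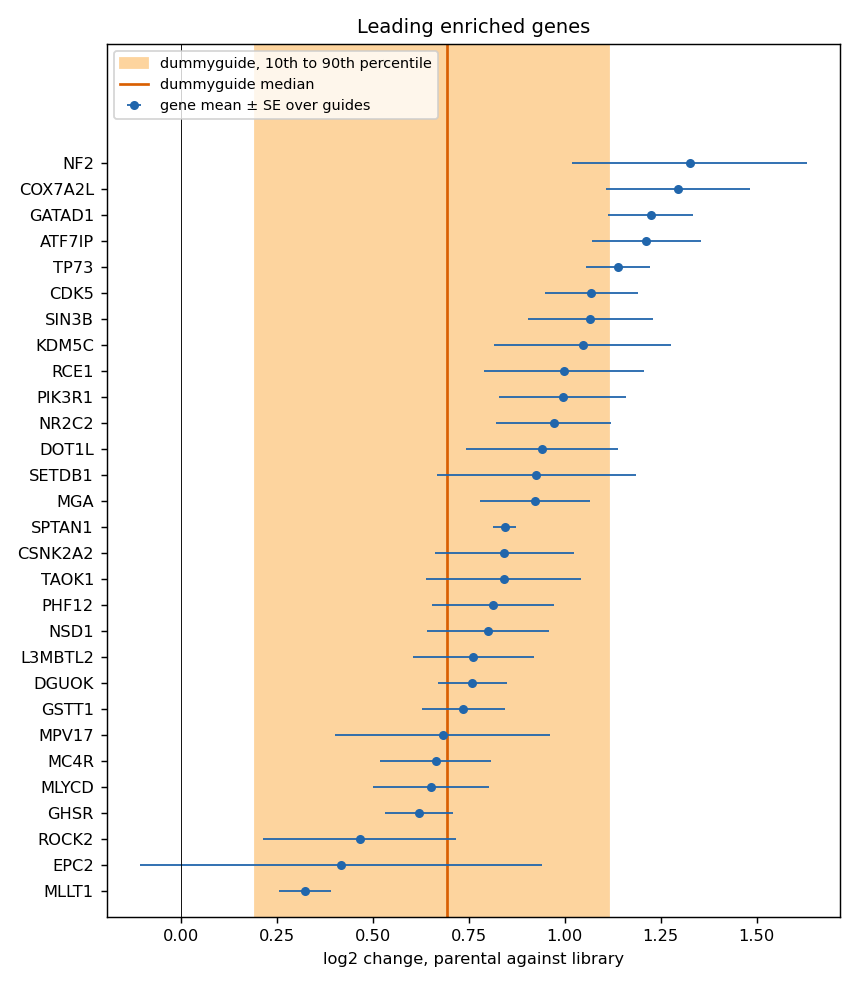
Mean log2 change over guides with its SE for 29 of the 30 enriched genes with the lowest RRA p, parental against library. The orange band covers the 10th to 90th percentile of the 100 dummyguide guides (0.19 to 1.11) and the orange line their median (0.69); 5 genes from NF2 to TP73 lie to the right of the band, and MLLT1 is lowest at 0.32.

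Among the lists, the one of the NuRD and SIN3 chromatin repressors held the most enriched genes, 5 of 29: GATAD1 (1.22), SIN3B (1.07), PHF12 (0.81), ARID4A (0.78) and MBD2 (0.75), the last pair chosen for mention after their values were seen, all above 0 with the dummyguide scaling, and 6 were depleted, with SAP18 (−2.55), SIN3A (−2.13), SUDS3 (−1.62) and SAP130 (−1.38) lowest. For comparison, 1.07% of all genes were enriched and 9.90% depleted. SIN3A and SIN3B are paralogous scaffolds of histone deacetylase complexes. SIN3B guides had 15.3 and 14.6 CPM in the library and 33.3 and 35.7 CPM in parental cells, while SIN3A guides had 20.7 and 20.2 CPM against 4.17 and 3.16 CPM. The paralogues thus moved in opposite directions. SIN3A was not called with a rank share limit of 0.1 (adjusted p = 0.0716), and it lies in the chromosome 15 stretch described further on.

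SETDB1, which methylates H3 at lysine 9, and ATF7IP, the protein that stabilises it, were both enriched. ATF7IP went from 12.2 and 13.2 CPM to 22.1 and 28.6 CPM (change 1.21, SE 0.142) and SETDB1 from 11.1 and 9.97 CPM to 20.5 and 22.1 CPM (change 0.93, SE 0.259, adjusted p = 0.00323). With the dummyguide scaling they stood at 0.49 and 0.20. SETDB1 was no longer called without parental replicate 2 (adjusted p = 0.0721). In the same list TRIM28, which recruits SETDB1, was depleted at −1.29, and CBX3 at −0.94, which lost its call without either parental replicate (adjusted p = 0.469 and 0.0828). L3MBTL2 (0.76) and MGA (0.92), subunits of a variant Polycomb complex, were enriched, the former as the 1 enriched gene of 24 in PRC1. They stood at 0.04 and 0.20 with the dummyguide scaling.

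Of the histone demethylases KDM5C, which removes H3K4 methylation, was enriched, from 23.2 and 23.8 CPM to 50.7 and 51.7 CPM (change 1.05, SE 0.230, or 0.32 with the dummyguide scaling). UTY was enriched at 0.66 but lay at −0.06 with the dummyguide scaling and lost its call without parental replicate 1 (adjusted p = 0.0760). KDM8 (−2.34) and KDM2A (−1.71) were depleted, among 25 genes with a median of −0.04, a count near the 9.90% depleted over all genes. The share enriched over all genes was 1.07%. In the PAF1 and DOT1L list 9 of 14 were depleted, including SUPT16H (−2.66), CDC73 (−2.51), SUPT6H (−2.43) and CTR9 (−2.11). DOT1L, the H3K79 methyltransferase, was enriched at 0.94 (SE 0.199), or 0.22 with the dummyguide scaling, and MLLT1, a reader protein that works with DOT1L, at 0.32 over 119 guides, of which 87 lay above 0. Most of these MLLT1 guides carried identifiers of the CTRL class, and its guides of the EPI class ran from −0.57 to 1.22. MLLT1 lay at −0.40 with the dummyguide scaling. EPC2 (0.42) and MORF4L2 (0.57) of the TIP60 list were called enriched and also lay below 0 with that scaling, at −0.31 and −0.16. The EPC2 mean included 1 guide at −3.85, while the median over its 10 guides was 0.85 before that scaling and 7 lay above 0. MORF4L2 lost its call when any of the 4 samples was left out (adjusted p = 0.0734 to 0.255).

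Among the signalling brakes, 3 of 12 Hippo genes were enriched and none was depleted, against 1.07% and 9.90% of all genes. Those enriched were NF2, TAOK1 (0.84) and CSNK1E (0.39), the last at −0.33 with the dummyguide scaling. TAOK1, a kinase upstream of the Hippo kinases, went from 14.6 and 14.3 CPM to 30.8 and 21.5 CPM, and its change was 0.12 with the dummyguide scaling. The Hippo kinases LATS1 (0.13), LATS2 (−0.15), STK3 (−0.44) and STK4 (−0.13) were not called, nor were their targets YAP1 (−0.34) and WWTR1 (−0.24). Of 16 mTORC1 and PI3K brakes PIK3R1 and FOXO1 (0.49) were enriched, and FOXO1 lay at −0.24 with the dummyguide scaling and lost its call without parental replicate 1 (adjusted p = 0.0635). TSC1 (0.53), STK11 (−0.42) and NPRL2 (0.67, or −0.05 with that scaling) were not called.

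Among regulators of the DNA damage response, ATM (−1.37), the kinase that responds to DNA breaks, MDM2, a ubiquitin ligase (−0.79), and TP53BP1, which steers break repair (−0.75), were depleted. MDM2 was not called without parental replicate 1 (adjusted p = 0.136) or 2 (0.0853), nor TP53BP1 without replicate 1 (0.0604). CHEK2 (0.26) and CDKN1A (0.25) were not called. The list of RB and CDK inhibitor brakes also held kinases such as CDK5, which is not a CDK inhibitor. Of its 14 measured genes CDK5 and CDKN2A were enriched and FBXW7 was depleted (−1.25), against 1.07% and 9.90% of all genes. FBXW7 lost its call without parental replicate 1 (change −1.33). CDKN2A guides went from 10.9 and 10.4 CPM to 24.6 and 19.6 CPM (change 0.80, SE 0.205, adjusted p = 0.0427), a call that did not hold with the dummyguide scaling (adjusted p = 0.0710) or without parental replicate 2 (0.0753). RB1 (0.39), CDKN1B (0.31) and CDKN1C (0.68) were not called.

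Few members of the other brake lists were called. Over all 7090 genes 1.07% were enriched and 9.90% depleted, and with lists this small nothing is read from these counts. Of 8 RAS-ERK brakes CSK, which restrains SRC kinases, was enriched at 0.71, and lay at −0.02 with the dummyguide scaling, while NF1 stood at −0.21. CSK lost its call without library replicate 2 (adjusted p = 0.0513) or parental replicate 1 (0.120). Of 16 TGF-beta and BMP genes SMAD7 was enriched at 0.76. With the dummyguide scaling it stood at 0.04 and was not called (adjusted p = 0.0818), and it lost its call with a library mean of at least 100 (0.0760), without library replicate 1 (0.0765) or without parental replicate 1 (0.0876). None of the 12 apoptosis genes was enriched, with BAX at 0.35, BAK1 at 0.45 and CASP8 at −0.22, and VDAC2, a mitochondrial channel, was depleted at −2.23. Of 12 WNT genes CSNK1A1 was depleted (−1.57), and APC stood at −0.50. No gene was called among 16 stress kinase genes, 7 of the integrated stress response, 5 of the NCoR corepressor and 5 of the KEAP1 group, by edgeR with RRA at an adjusted p below 0.05.

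Paralogue pairs were compared by their calls. Of 37 pairs with both genes measured, 12 had 1 depleted gene, 4 had both depleted, 2 had 1 enriched, 1 had both enriched, 1 had opposite calls and 17 had none called. HK2, the hexokinase, changed by −2.20 while HK1 stood at 0.05. IMPDH2, which commits purines to guanine nucleotides, changed by −3.30 and IMPDH1 stood at 0.04. RRM2 changed by −3.15 and RRM2B stood at −0.07, and RBBP4 changed by −2.17 while RBBP7 stood at 0.18. The acetyltransferase CREBBP was depleted at −1.60 and its paralogue EP300 stood at 0.49, and CDK4 was depleted at −1.47 with CDK6 at −0.45. AURKA and AURKB, WEE1 and PKMYT1, and MCL1 and BCL2L1 were among the pairs depleted in both genes. The difference within a pair was not tested.

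Genes on part of chromosome 15 were lower as a block. Between 60 and 90 Mb (GRCh38.p14), a stretch chosen after the values were seen, 87 genes were tested, of which 13 were depleted and 1 enriched. The depleted share was 14.9%, against 11.4% on the rest of chromosome 15 and 9.90% over all genes. The 73 genes not called had a median change of −0.46 (−0.49 in parental replicate 1 and −0.47 in replicate 2), and 67 of them lay below 0. On the rest of chromosome 15 the 100 genes not called had a median of 0.01, with 47 below 0. Among 232 windows of 10 Mb with 10 or more uncalled genes across the genome, medians ran from −0.47 to 0.36, and the lowest lay in this stretch. HAP1 is known to carry an extra copy of part of chromosome 15. Its part in these values was not tested, and PKM and SIN3A, at −3.58 and −2.13, lie in the stretch.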

How the data were processed

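The authors deposited raw counts per guide for 6 samples, which were used as deposited. The submitters' processing notes name MAGeCK and the hg38 build without a role or version. Guides had to average 30 counts in the library samples, so the parental samples played no part in the filter. Counts were scaled with TMM and fitted per guide by group over all 6 samples with edgeR 4.0.16 in R 4.3.3 (glmQLFit, robust, and glmQLFTest). Guides were combined by RRA with a rank share limit of 0.25 and an exact null from uniform order statistics, for genes with 3 or more guides, with Benjamini-Hochberg adjustment over all 7090 genes in each direction. RRA was rebuilt, and MAGeCK was not run. CPM values are counts scaled to library size with the TMM factors. The steps were tested on simulated data.

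The comparison, the 60 gene lists and the gene pairs were chosen with earlier results of these data known. In 2 of the lists, the aminoacyl-tRNA synthetases of the cytosol and of mitochondria, no gene was measured. The text names the leading genes by RRA p (25 depleted, 30 enriched), up to 4 called members of a list in its main direction and 2 in the other, all members of lists with 6 or fewer, uncalled members of the brake lists, both genes of each pair, and SETD2. Some genes that these rules name, and 1 gene list, are not reported here. Further genes are marked as chosen after their values were seen. Symbols were matched to RefSeq (GRCh38.p14), where 6757 were current, 316 were synonyms and 17 had no single match, and the text uses the symbols of the table. With 2 against 2 samples an exact permutation test of a single value cannot go below p = 0.333, so single values were given no such test. Alternatives covered scaling, filter, test, rank share limit, gene summary, replicate block and each replicate left out.

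The replicate numbers of library, parental and SETD2-mutant samples were not taken as pairs, since deviations of same-numbered samples from their group means correlated at −0.005, −0.003 and −0.005.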

Additional observations from a re-analysis of the deposited data

Results flagged for a closer look

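For 54 of the genes named by rule the change differed between the lines in a test of SETD2-mutant minus parental cells (edgeR with RRA, adjusted p below 0.05). The values below are log2 differences, SETD2-mutant minus parental, and the test shares the parental samples with the comparison reported here, so a high parental value by itself favours a negative difference and a low one a positive difference. Of the 76 enriched genes 16 were lower in SETD2-mutant cells and 1, NF2, was higher (1.16). Of the 702 depleted genes 31 were lower and 46 were higher. Over all 7090 genes 1.28% were lower and 1.03% higher, and since the parental samples are shared, nothing is read from the difference of these shares.

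In a fit of the parental and SETD2-mutant samples alone, 10 of these differences were no longer called: RBBP4 (adjusted p = 0.203), WDR5 (0.157), SCAP (0.123), MCL1 (0.115), TKT (0.105), C19orf40 (0.0950), CSNK1A1 (0.0823), ACTL6A (0.0767), FANCM (0.0761) and HSP90AB1 (0.0604). MCL1 (0.161) and ACTL6A (0.0720) also lost their call with the dummyguide scaling.

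Among the enriched genes, the chromatin regulators were lower in the mutant at NSD1 (−1.77), PHF12 (−1.51), SETDB1 (−1.12), DOT1L (−1.04), EPC2 (−1.02), ATF7IP (−0.95), SIN3B (−0.89), L3MBTL2 (−0.80), GATAD1 (−0.70), KDM5C (−0.53) and MGA (−0.51). MPV17 (−1.57), CSK (−1.36) and COX7A2L (−1.11) were lower as well.

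Among the depleted genes, higher in the mutant were CAD (3.45), GART (1.94), ATIC (1.87), PAICS (1.74), MTHFD1 (1.54) and TKT (1.44). So were MED1 (1.31), CDK4 (1.21), TRIM28 (1.16), TFRC (1.03), CREBBP (0.94), CDC73 (0.84), SMARCB1 (0.71), C19orf40 (0.61), FANCM (0.59), SETD2 (0.50) and KPNA2 (0.39). Lower in the mutant were MCL1 (−2.80), ACTL6A (−2.33), SCAP (−2.27), WDR82 (−1.67), VDAC2 (−1.46), NDUFA11 (−1.37), SLC16A1 (−1.33), NDUFA1 (−1.33), WDR5 (−1.23), RBBP4 (−0.98) and CSNK1A1 (−0.86).

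Genes not called in parental cells but different between the lines were HDAC3 (−1.79), TSC1 (−1.67), NPRL2 (−1.51), KEAP1 (−1.48), BCL2L2 (−1.14), EP300 (−1.07), CUL3 (−1.03) and HSP90AB1 (−0.94), which were lower in the mutant, and CDK8 (0.82), CDK6 (0.63) and KMT2C (0.43), which were higher.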

How the results depend on the processing

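With 2 replicates a group and 1 transduction, a gene that was not called is not shown to be unneeded. The counts of 702 depleted and 76 enriched genes moved by more than 1.5 times in 2 alternatives that do not weigh the agreement of guides: with limma on the mean of each gene 2223 were depleted and 1665 enriched, and summed counts per gene called 2149 and 2092. The other alternatives gave 526 to 711 depleted and 54 to 88 enriched genes. Leaving out each replicate in turn gave 668 to 699 depleted and 72 to 88 enriched. Without parental replicate 1, 649 of the 702 and 54 of the 76 calls remained, and without parental replicate 2, 655 and 51. With the replicate block, although the numbers did not pair the samples, 711 were depleted and 84 enriched.

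Among genes named by rule and called in either setting, a change of sign came only with the dummyguide scaling: MLLT1 −0.40, CSNK1E −0.33, EPC2 −0.31, ROCK2 −0.26, FOXO1 −0.24, MORF4L2 −0.16, GHSR −0.10, MLYCD −0.072, MYCN −0.071, UTY −0.065, MC4R −0.060, NPRL2 −0.051, MPV17 −0.041 and CSK −0.017. Of the 368 named genes under 18 alternatives each, 6170 values kept their direction and side of the threshold, 78 lost a call, 233 gained one and 129 of uncalled genes changed sign without a call. Of the genes described above, a rank share limit of 0.1 ended the calls of AHCY, CBX3, CSK, EZH2, FBXW7, FH, FOXO1, HCFC1, MDM2, MED1, MORF4L2, NDUFA11, RPTOR, SIN3A, SLC16A1 and TP53BP1. The dummyguide scaling ended those of AHCY, CBX3, CDKN2A, DLST, EIF4E, FBXW7, MED1, NDUFA11, RPTOR and SMAD7, and a fit of the library and parental samples alone those of CBX3, MDM2 and MED12. CSK and MORF4L2 also lost theirs with library totals, orphan receptor scaling or a library mean of at least 100, CSK with DESeq2 per guide, and MORF4L2 with the replicate block or summed library samples. Scaling on orphan receptor guides shifted all genes by −0.13 and on CTRL guides by −0.01.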

Other observations

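Of the 702 depleted genes 296 were in none of the lists, and 49 of the 76 enriched genes were in none. The groups below were put together after the values were seen, with each complex taken as a whole, and are given as counts only. Beside these counts, 9.90% of all genes were depleted and 1.07% enriched. All 11 measured genes of the RNA exosome, which degrades and trims RNA, were depleted (median −2.40), from EXOSC8 (−3.03) to EXOSC9 (−1.40). All 6 genes of Elongator were depleted (median −2.76), with ELP6 (−3.26) and ELP3 (−3.18) lowest, beside IKBKAP. All 4 measured genes of Integrator, which processes small nuclear RNA, were depleted, INTS5 lowest at −3.14.

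Membrane insertion followed the same course. Of 7 measured genes of the endoplasmic reticulum membrane protein complex 6 were depleted (median −1.77), with EMC7 at −2.93, and EMC10 stood at 0.21. The insertion factors of tail-anchored proteins WRB (−2.73), ASNA1 (−1.74) and CAMLG (−1.22) were all depleted. Of 15 measured genes of mitochondrial protein import 8 were depleted (median −1.73), with ROMO1 (−4.41), TIMM23 (−3.21) and TOMM20 (−3.07) lowest. ATP2A2, the calcium pump of the endoplasmic reticulum, was the lowest gene outside the lists at −4.86 (SE 0.876), from 10.3 and 10.3 CPM in the library to 0.461 and 0.283 CPM in parental cells.

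Histone chaperones had 10 of 15 measured genes depleted and none enriched. These held CHAF1A (−1.48) and CHAF1B (−1.95) of the replication-coupled route, HIRA (−1.60), DAXX (−2.33) and ATRX (−1.26) of the replication-independent routes, and HJURP (−1.82), which loads the centromeric histone CENPA (−1.97). ASF1A (−0.11) and ASF1B (0.18), paralogues that hand over histones, were not called.

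Of 10 measured genes of the SIN3B, PHF12 and MRG15 group 5 were enriched and none was depleted. Of all genes tested, 1.07% were enriched and 9.90% depleted. MORF4L2, 1 of the 5, lay below 0 with the dummyguide scaling. Not called were KDM5A (0.50), HDAC1 (0.09), ARID4B (−0.32), HDAC2 (−0.55) and MORF4L1, the gene of MRG15 (−0.68). Of 13 measured genes of the variant Polycomb complex with MGA, 2 were enriched, and MAX (−2.37), WDR5 (−2.72) and CBX3 (−0.94), which also serve elsewhere, were depleted. Its uncalled members were PCGF6 (0.41), RING1 (0.48), E2F6 (0.37), TFDP1 (0.48), HDAC1 (0.09), YAF2 (−0.11), RNF2 (−0.11) and HDAC2 (−0.55). The median of all 13 was 0.09.

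The median change of uncalled genes was −0.19 on chromosome 15, the lowest of the chromosomes, and 0.20 on the X chromosome, the highest among chromosomes with more than 3 uncalled genes. The Y chromosome had a median of 0.44 over 3 uncalled genes, and 1 of its 4 tested genes was enriched.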
